A study of Mus musculus with 166 samples.

Results

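The miR-200 family of microRNAs was followed in the cerebellum of mice that carry a range of CAG repeat lengths in huntingtin (Htt). Its 5 members were taken by name: Mir200a, Mir200b, Mir429, Mir200c and Mir141. Each matched 1 feature of the 1626 in the count table through its GENCODE M21 transcript, so that the family is 5 of 1626 features. Small RNA was sequenced from mouse cerebella at 2, 6 and 10 months of age, 1 library per mouse, on the C57BL/6 background. The leading digits of the library names part the mice into a larger series of 150 and a smaller series of 16. The labels do not say what these digits stand for. Both sets belong to the cerebellum libraries of the study's Series 1. The Q20, Q80, Q92, Q111, Q140 and Q175 mice are heterozygous knock-ins, in which human HTT exon 1 with an expanded or normal CAG repeat lies in 1 endogenous Htt allele, and wild-type (WT) mice are littermates of the Q20 line. Of the 21 groups of line and age, 19 hold 8 mice, and Q111 and Q140 at 10 months hold 7, with both sexes in each. WT and Q20 together served as controls. The Q175 line arose from the Q140 line by spontaneous expansion of the repeat, and each repeat length is its own line, so the effect of the repeat and of anything else that sets a line apart cannot be told apart.

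MicroRNAs pair with messenger RNAs through a short seed near their 5′ end and lower their translation and stability. The miR-200 family is abundant in epithelia and in olfactory tissue, where it represses Zeb1 and Zeb2, transcription factors that silence E-cadherin, and so maintains the epithelial state.

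The hairpins lie in 2 clusters (GRCm38). Mir200b (ENSMUST00000083615, chromosome 4, 156055681 to 156055750), Mir200a (ENSMUST00000083466, 156054896 to 156054985) and Mir429 (ENSMUST00000083493, 156053905 to 156053987) lie within 1846 bp of the minus strand. They sit in introns of Ttll10, a tubulin-glycylase family gene of the same strand, and inside the transcript Gm13648, of which an exon overlaps Mir429. Mir200c (ENSMUST00000083528, chromosome 6, 124718322 to 124718390) and Mir141 (ENSMUST00000083540, 124717914 to 124717985) lie within 477 bp of the minus strand, in an intron of the antisense transcript Gm15884, and an exon of Gm29008 overlaps Mir141. The nearest coding gene, Phb2, is on the opposite strand.

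The mature 3p sequences are shown because the seed divides the family across its clusters. They were taken from RefSeq (GRCm38.p6), which held all 5 members, and the capitals mark the seed, bases 2 to 8. Mir200b, Mir200c and Mir429 share the seed AAUACUG.
miR-200b-3p: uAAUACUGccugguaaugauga
miR-200c-3p: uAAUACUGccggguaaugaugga
miR-429-3p: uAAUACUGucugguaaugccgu
Mir200a and Mir141 share the seed AACACUG.
miR-200a-3p: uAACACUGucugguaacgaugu
miR-141-3p: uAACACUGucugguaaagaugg
Each seed group has members in both clusters. Positions are counted from 1 at the 5′ end, with the base of the first-named sequence first. Between miR-200b-3p and miR-200a-3p, neighbours on chromosome 4, the differences are U4C, C9U, U17C and A22U, of which only U4C lies in the seed. Across the clusters, miR-200a-3p and miR-141-3p differ by C17A and U22G, and miR-200b-3p and miR-200c-3p by U11G and A22G over their first 22 bases.

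Such likeness bears on which hairpin a read is counted for. Mir200a and Mir141 share the longest run of any member with another of 1005 hairpins, 17 nt. They were the only members with fractional counts, in the same 9 libraries, and in 9 of 9 the sum of the pair was whole (tolerance 0.01). The sources used here do not name a step that divides reads between hairpins, and in those libraries the value of each is less certain than the sum of the pair. The next longest run, 14 nt, is shared by Mir200b and Mir200c, and no count of theirs was fractional. Counts are per hairpin, so the 5p and 3p arms were not measured apart.

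Libraries held 3094692 to 6188908 counts, with medians of 4183598.5 at 2 months, 4296935 at 6 months and 4617351 at 10 months. All 16 libraries of the smaller series are the WT and Q175 libraries at 6 months, and the other 150 libraries are of the larger series. No 2 libraries of a group were alike within sampling noise (lowest chi-square per degree of freedom 14.7 over all pairs). The tests left out 9 libraries of low connectivity, a measure of how close a library is to the others of its age. Of these, 8 were of 2 months (Q111 M3, Q92 M4, Q92 M2, Q80 M2, Q80 F1, Q20 M4, WT M1, WT F3) and 1 of 10 months (Q20 F3). The remaining 157 libraries and all features that passed a filter on low counts entered edgeR's quasi-likelihood test, with the Benjamini-Hochberg FDR over all features tested. A name such as Q175 M2 gives the line, the sex and the replicate number of a mouse.

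The family was scarce in cerebellum. Its 5 members together took 7142 counts, 0.000968% of 737742093. The summed level per library ran from 5 to 536 counts (median 22), or from 1.19 to 113.6 CPM (counts scaled to a common library size with TMM factors, per 1000000; median 5.21 CPM). The 3 hairpins of chromosome 4 held 67.2% of the summed CPM and the 2 of chromosome 6 held 32.8%. As a check of the tissue, 7 neuronal microRNAs (of 11 listed), copies of Mir124, Mir9 and Mir128, were present and summed to medians of 63990 to 82154 CPM by age in the larger series.

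Per kb of hairpin, the median level over libraries was highest for Mir141, at 22.7 CPM per kb, followed by Mir429 at 16.9, Mir200b at 16.7, Mir200a at 9.67 and Mir200c at 3.74 CPM per kb. These placed the members at ranks 346 to 448 of 1228 annotated features. In summed counts Mir429 was first with 2118, then Mir141 with 2053, Mir200b with 1402, Mir200a with 1296 and Mir200c with 273. Mir141 was at 0 in 1 library, Mir200b in 4, Mir429 in 6, Mir200a in 12 and Mir200c in 53 libraries. Mir200c did not pass the filter on low counts, so the tests cover 4 of the 5 members.

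The family was higher at 10 months than at 2 months in controls.
In WT and Q20 together Mir429 was at 0.235, 1.77 and 6.59 CPM (lowest, median and highest of 13 libraries) at 2 months and at 0.642, 3.64 and 16.5 CPM (15 libraries) at 10 months. Mir200a was at 0.240, 0.717 and 2.03 CPM at 2 months and at 0.214, 2.56 and 6.91 CPM at 10 months. Mir141 was at 0.470, 1.15 and 5.32 CPM at 2 months and at 1.39, 4.12 and 9.13 CPM at 10 months. The median of Mir200b was 0.966 CPM (0 to 3.04) at 2 months and 2.56 CPM (0.486 to 5.43) at 10 months, and the ranges of the ages overlapped for each of these members. By edgeR's quasi-likelihood test all 4 tested members rose from 2 to 10 months in controls, with log2 fold changes of 1.29 ± 0.39 (SE) for Mir200b (FDR = 0.00768), 1.86 ± 0.41 for Mir200a (FDR = 0.000416), 1.47 ± 0.42 for Mir429 (FDR = 0.00511) and 1.41 ± 0.33 for Mir141 (FDR = 0.000710). In this comparison 46.7% of all features tested were called, and 24% were called higher. The median log2 fold change was 1.44 over the 4 members and -0.0326 over all features. All 4 were called in each of 28 fits that left out a library, which were added after the data were seen. In bulk tissue, more cells of a type and more RNA per cell cannot be told apart.

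Medians at 10 months were above those at 2 months in each line, as the plot of summed CPM by library shows. The median of the summed family at 2, 6 and 10 months was 6.28, 3.41 and 13.8 CPM in WT. It was 4.22, 4.61 and 13.4 CPM in Q20, and 3.76, 5.09 and 12.4 CPM in Q80. Every Q80 library at 10 months, 8 of 8, lay above every Q80 library at 2 months. The medians were 3.16, 3.39 and 12.8 CPM in Q92, 3.46, 4.72 and 13.6 CPM in Q111, and 3.93, 3.61 and 12.6 CPM in Q140. In these lines 7 of 8, 6 of 7 and 2 of 7 libraries at 10 months lay above all those at 2 months. In the control lines 6 of 8 WT and 2 of 8 Q20 libraries did. Q175 had the other order, with 2.82 CPM at 2 months, 10.6 CPM at 6 months and 6.24 CPM at 10 months, and 4 of 8 libraries at 10 months above all at 2 months. The libraries of WT and Q175 at 6 months are of the smaller series and those at 2 and 10 months of the larger. In these lines 6 months cannot be told apart from its series. Among tested members, Mir200a of Q80 and Mir200a and Mir429 of Q111 had every library at 10 months above every library at 2 months. So had 4.85% of all features tested in each of these lines (22 features), and 3.52% to 8.37% over the 7 lines. Mir200c, outside the test, had a median of 0.267 CPM in controls at 2 months, with 6 of 13 libraries at 0, and of 0.665 CPM at 10 months, with 2 of 15 at 0.

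**Figure D1:**
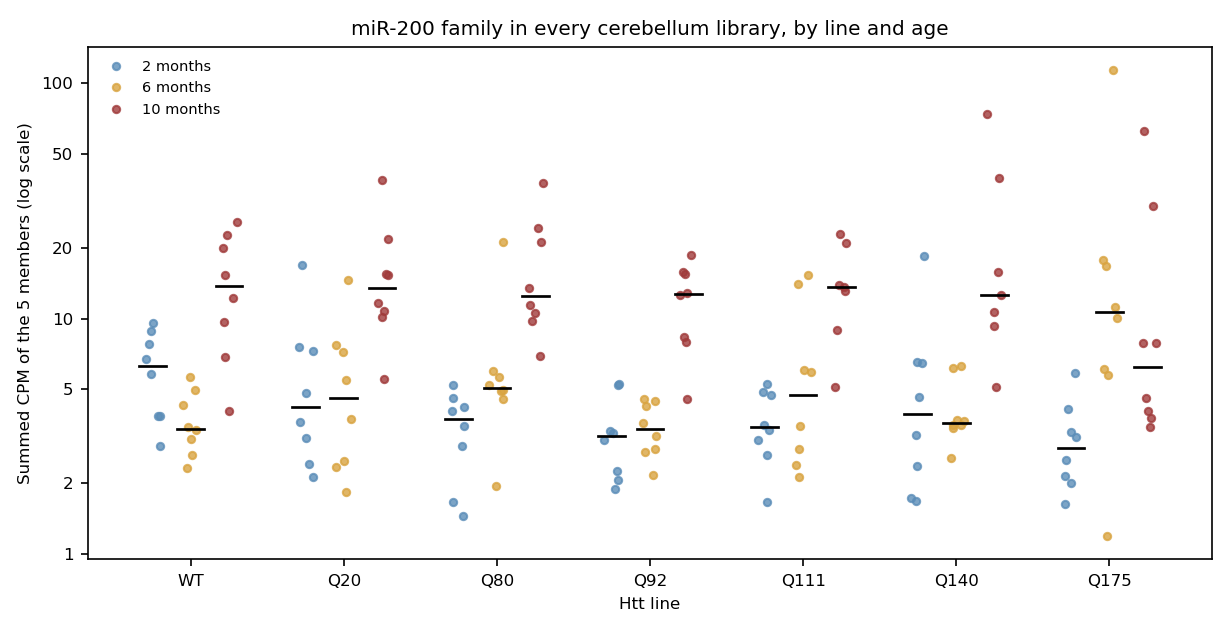
Summed CPM of the 5 members in each library, on a log axis, by line and age, with a bar at each group's median. Most 10-month groups have medians between 12.4 and 13.8 CPM against 2.82 to 6.28 CPM at 2 months, Q175 at 10 months is at 6.24 CPM, and Q175 M2 at 6 months is the highest library at 113.6 CPM.

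Across Q20, Q80, Q92 and Q111, whose libraries are all of the larger series, all 4 tested members were called between 6 and 10 months and 2 between 2 and 6 months. Mir429 was at 0, 0.682 and 7.81 CPM (lowest, median, highest of 32 libraries) at 6 months and at 1.22, 3.89 and 16.5 CPM (30 libraries) at 10 months. Mir200b had medians of 0.761 and 2.91 CPM, Mir200a of 0.724 and 2.44 CPM, and Mir141 of 1.67 and 3.79 CPM at these ages. All 4 rose, by log2 2.21 ± 0.29 for Mir429 (FDR = 5.23e-10), 1.59 ± 0.25 for Mir200b, 1.46 ± 0.26 for Mir200a and 0.97 ± 0.20 for Mir141 (FDR = 5.1e-05, edgeR quasi-likelihood), where 40.7% of features were called and 23.1% called higher. From 2 to 6 months 2 of 4 rose, Mir200a by 1.17 ± 0.33 (FDR = 0.00166) and Mir141 by 0.54 ± 0.23 (FDR = 0.0364), where 60.6% of features were called and 29.5% called higher. Mir200b, at 0.48 ± 0.30 (FDR = 0.158), and Mir429, at 0.30 ± 0.34 (FDR = 0.476), did not pass the test. The call of Mir141 was lost without Q80 F3 at 6 months (log2 0.48, FDR = 0.0629), a fit added after the data were seen. Lanes of the sequencer differed by age (L1 and L2 at 2 months, L1, L2 and L8 at 6 months, L4, L5 and L6 at 10 months), and in the larger series none of the 10-month lanes was used at the other ages, so 10 months cannot be told apart from its lanes. The lane numbers L1 and L2 recur at 2 and 6 months, but nothing in the labels says that they are the same lanes, so these ages cannot be told apart from their lanes either.

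Other microRNAs were compared over fixed lists. Of 4 other epithelial microRNAs, Mir203 (log2 0.52 ± 0.08) and Mir31 (0.38 ± 0.08), both known from skin and other epithelia, rose from 2 to 10 months in controls, and Mir375 (0.59 ± 0.28, FDR = 0.0874) and Mir205 (0.01, FDR = 0.989) did not pass the test. From 2 to 6 months in Q20 to Q111 all 4 rose (Mir375 by 0.62, FDR = 0.0069, Mir205 by 0.55, FDR = 0.00338, Mir203 by 0.31 and Mir31 by 0.32, edgeR quasi-likelihood), where 2 of 4 miR-200 members did. Between 6 and 10 months 1 of these 4 rose and 1 fell. The summed level of the 4 in the larger series had medians of 68.4, 89.5 and 93.5 CPM at 2, 6 and 10 months, none of the 4 was at 0 in any library, and the miR-200 family went from 3.51 and 4.0 to 12.6 CPM. Of 12 choroid plexus microRNAs present (13 listed), 10 were tested, of which 3 rose and 1 fell from 2 to 10 months in controls (median log2 0.87). From 2 to 6 months in Q20 to Q111, 7 of the 10 rose and 1 fell (median 0.94), and from 6 to 10 months 1 rose (median 0.22). For these lists as for the members, 46.7% of all features tested were called from 2 to 10 months in controls, 24% higher. These shares were 60.6% and 29.5% from 2 to 6 months in Q20 to Q111, and 40.7% and 23.1% from 6 to 10 months. The 12 present summed to medians of 18743, 17921 and 18779 CPM, and most of that sum was Mir204, with a median of 17936 CPM. The sensory cluster (3 microRNAs) had medians of 1012, 767 and 1061 CPM, most of it Mir182 (median 898 CPM). The vascular list (3) had medians of 14371, 14662 and 16442 CPM. The hindbrain list of Hox-linked microRNAs (5) had 1220, 1500 and 1997 CPM, and the neuronal list 82154, 63990 and 64667 CPM. From 2 to 10 months in controls Mir183 (log2 1.03) and Mir182 (0.57) rose and Mir96 fell (-1.53). Of tested microRNAs, 2 of 2 Hox-linked ones rose there (median 0.99). Of 3 vascular ones 2 rose and 1 fell, and of 7 neuronal ones 1 rose and 5 fell. The part of these lists in the age difference was not tested.

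The plot of fold changes sets the members' comparisons side by side.

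**Figure D2:**
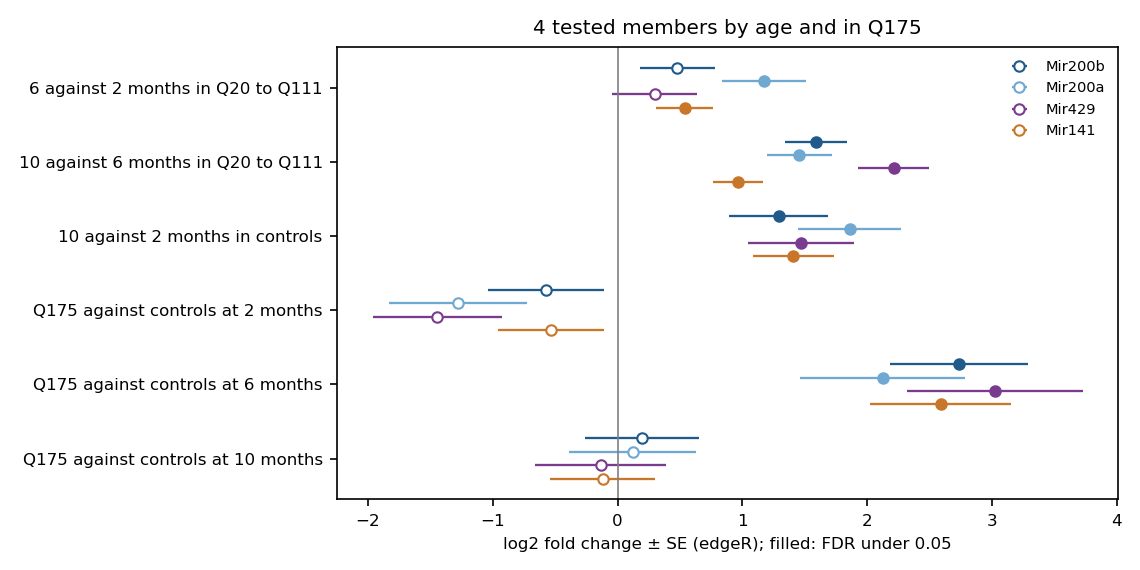
Log2 fold change of the 4 tested members (x axis), with SE as error bars, in 3 comparisons by age and for Q175 at each age, filled where FDR was under 0.05. All 4 lie above 0 for 10 against 2 months in controls (1.29 to 1.86) and for Q175 at 6 months (2.13 to 3.02), and near 0 for Q175 at 10 months (-0.14 to 0.19).

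At 6 months the family was higher in Q175 than in WT, at a size that a single library set in part. Mir200b was at 0.178, 0.477 and 1.28 CPM (lowest, median, highest of 8 WT libraries) and at 0.398, 1.92 and 19.3 CPM in the 8 Q175 libraries. Mir429 was at 0.533, 0.604 and 1.61 CPM in WT and at 0.597, 2.17 and 38.6 CPM in Q175. For each of these members 6 of 8 Q175 libraries lay above all WT libraries.
Mir141 was at 0.533, 0.797 and 1.92 CPM in WT and at 0.199, 2.43 and 28.8 CPM in Q175, of which 5 of 8 lay above all WT libraries and 1 below. Mir200a was at 0.385, 0.996 and 2.01 CPM in WT and at 0, 1.73 and 24.2 CPM in Q175, and the lines overlapped most here, with 3 of 8 Q175 libraries above all WT. Mir200c, too scarce for the test, was at 0, 0.0903 and 0.630 CPM in WT and at 0, 0.494 and 2.76 CPM in Q175. For these numbers of libraries above all WT, and for that of the summed family, the share over all features is not given here. They are a description only.

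Counts were small in most of these libraries. In replicates F1 to F4 and M1 to M4 of WT, Mir200b had 2, 6, 6, 2, 3, 1, 1 and 5 counts. In the same order Q175 had 19, 9, 23, 6, 7, 91, 11 and 2 counts of Mir200b. The library M2 stood far above the other 7, and M4 was in the range of WT. For Mir429 WT had 3, 4, 9, 3, 3, 3, 3 and 8 counts and Q175 had 10, 9, 25, 17, 10, 182, 8 and 3. For Mir141 WT had 4, 3, 4, 7, 10, 4, 3 and 7 counts and Q175 had 10, 5, 16, 14, 46, 136, 10 and 1. M1, with 46 counts, was the next highest after M2 for Mir141, while its 10 counts of Mir429 were near the middle of the Q175 libraries. Summed over the family, 7 of 8 Q175 libraries lay above all 8 WT libraries, whose highest was 5.67 CPM, and Q175 M4 was the lowest of all libraries at 1.19 CPM.

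**Figure D3:**
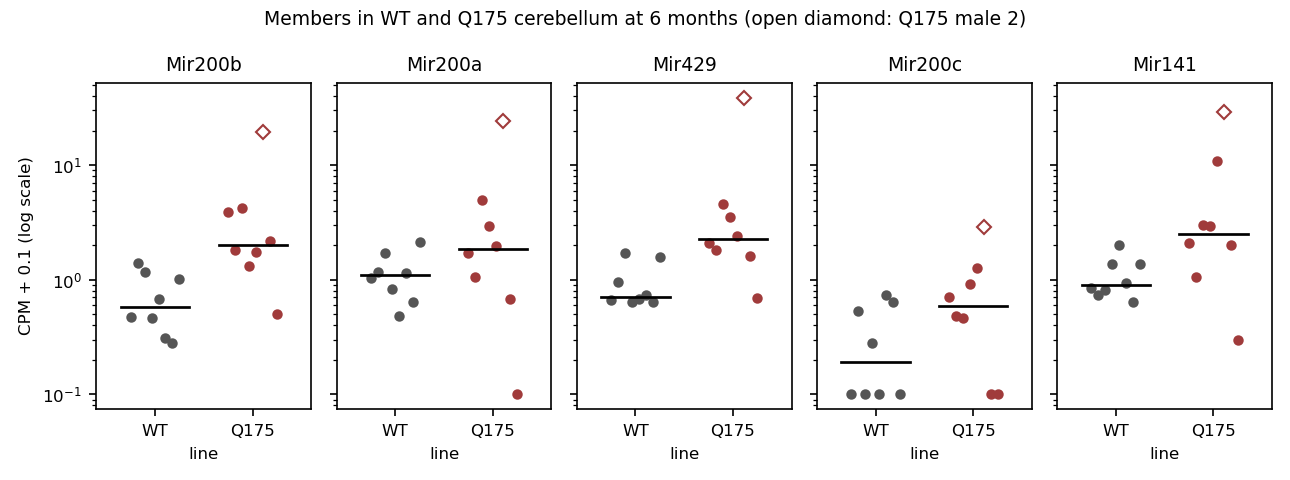
CPM + 0.1 of each member (log axis) in the 8 WT and 8 Q175 libraries at 6 months, 1 point per library, with libraries at 0 drawn at 0.1, a bar at each median and M2 as an open diamond. Medians were higher in Q175 for each member, from 0.0903 against 0.494 CPM in Mir200c to 0.797 against 2.43 CPM in Mir141, and M2 is the highest point of each member.

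By edgeR's quasi-likelihood test against controls with terms for sex and series, all 4 tested members rose in Q175 at 6 months. The log2 fold changes were 2.74 ± 0.55 for Mir200b (FDR = 0.000209), 2.13 ± 0.66 for Mir200a (FDR = 0.0182), 3.02 ± 0.71 for Mir429 (FDR = 0.00117) and 2.59 ± 0.56 for Mir141 (FDR = 0.000538). In this comparison 17.6% of features were called and 10.6% called higher. The median was 2.66 over the 4 members and -0.00228 over all features. Since Q20 is of the larger series at this age, the series term leaves WT as the reference. Without Q175 M2, Mir200b (1.72, FDR = 0.00839) and Mir141 (1.59, FDR = 0.0215) passed the test and Mir200a (0.67, FDR = 0.601) and Mir429 (1.31, FDR = 0.145) did not. The median of the summed family over the other 7 Q175 libraries was 10.0 CPM. Replacing outlying counts by the procedure of the study's methods took Mir200b in Q175 M2 from 91 to 5 counts. It took Mir141 from 136 to 7 counts in Q175 M2 and from 46 to 9 in Q175 M1. Mir200b alone was then called (1.65, FDR = 0.00774), and Mir141 was not (0.83, FDR = 0.120). No fit left out both Q175 M1 and Q175 M2. With a lane term 3 of 4 were called, Mir200a not (1.79, FDR = 0.183). Mir200a was called in 7 of 13 alternatives other than leaving out libraries. These 7 include the fit with all libraries kept, which repeats the main fit because no library of 6 months had been left out.

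Lanes of the smaller series were not spread evenly over the lines. In lane L5 the summed family was at 2.64 to 4.28 CPM in 4 WT libraries and at 5.77 to 113.6 CPM (median 11.2) in 7 Q175 libraries, without overlap. In that lane 4.41% of all features tested, 1 member among them, had each Q175 library above each WT library. In lane L6 it was at 2.31 to 5.67 CPM in 4 WT libraries and at 1.19 CPM in Q175 M4. With 1 Q175 library in L6 no spread could be had there.

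MicroRNAs of other epithelia and of the choroid plexus were not called in this comparison. None of the 4 other epithelial microRNAs was called, with log2 values of -0.02 for Mir203, 0.01 for Mir31, -0.10 for Mir205 and 0.13 for Mir375 (FDR = 0.929 to 0.997). Their sum was 87.2 to 221.3 CPM in Q175 (median 105.9) and 89.8 to 148.3 CPM in WT (median 132.8), and Q175 M2 was at 100.5 CPM, the 5th of 8. None of 10 tested choroid plexus microRNAs was called (median log2 0.15), and the 12 present, mostly Mir204, summed to 16225 to 25997 CPM in Q175 and 16079 to 24956 CPM in WT. The sensory cluster, known from hair cells and retina, was at 572 to 1241 CPM in Q175 and 617 to 1998 CPM in WT, with 0 of 3 called and M2 the highest Q175 library. The part of these cell types in the difference was not tested.

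With repeat length as a number, 3 of the 4 tested members were called at 6 months. Per 100 CAG, Mir200b rose by 0.95 ± 0.30 (FDR = 0.0193), Mir429 by 1.13 ± 0.38 (FDR = 0.0294) and Mir141 by 1.08 ± 0.29 (FDR = 0.00561), and Mir200a, at 0.69 ± 0.35 (FDR = 0.207), did not pass edgeR's test. Here 16.1% of features were called and 10.4% called higher. These 3 calls rested on Q175 M2: without it, in a fit added after the data were seen, none of the 4 was called (Mir200b 0.52, Mir200a 0.04, Mir429 0.39, Mir141 0.66 with FDR = 0.0637). No member was called with a lane term either. With the series term the slope was taken within each series, WT and Q175 in the smaller and Q20 to Q140 in the larger. Against controls at 6 months, log2 values were -0.15 to 0.44 in Q80, with 1 of 4 below 0. They were -1.27 to -0.05 in Q92 (4 below 0), -0.32 to 0.84 in Q111 (3 below 0) and -0.88 to -0.18 in Q140 (4 below 0). No feature was called in these 4 comparisons.

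At 10 months no member was called between Q175 and controls. Over all libraries, Q20 F3 included, summed CPM was at 3.45, 6.24 and 62.5 (lowest, median, highest) in Q175. It was at 4.07, 13.8 and 25.6 in WT and 5.56, 13.4 and 38.7 in Q20, with wide overlap. Log2 values were 0.19 ± 0.46 for Mir200b, 0.12 ± 0.51 for Mir200a, -0.14 ± 0.52 for Mir429 and -0.12 ± 0.42 for Mir141 (FDR = 0.806 to 0.886). In this comparison 25.8% of features were called. The highest Q175 library, M4 at 62.5 CPM, was at 10.0 times its group's median, and without it the 4 values were all below 0, at -0.58 for Mir200b, -0.86 for Mir200a, -0.97 for Mir429 and -0.82 for Mir141 (FDR = 0.192 to 0.422). Association with CAG length called 0 of 4 members at 10 months (22.2% of features called), and Q140 0 of 4 (5.73% called; log2 0.43 to 0.72, FDR = 0.521 to 0.713).

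The size of the Q175 difference at 6 against 10 months was itself tested with WT as reference. It was 2.54 ± 0.95 for Mir200b, 1.68 ± 1.13 for Mir200a, 2.84 ± 1.11 for Mir429 and 2.53 ± 0.93 for Mir141 in log2, all higher at 6 months. No feature was called by edgeR's quasi-likelihood test (members' FDR = 0.617 to 0.837), 32 features and 3 of the members had an unadjusted p under 0.05, and DESeq2 called 0. Without Q175 M2 the values were 1.54, 0.29, 1.26 and 1.61. The call at 6 months and its absence at 10 months are thus not shown to differ.

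At 2 months no member was called in any line, and the 4 tested members had values below 0 in Q80, Q92, Q111 and Q175. In Q175 log2 values were -0.57 ± 0.47 for Mir200b, -1.28 ± 0.55 for Mir200a, -1.44 ± 0.52 for Mir429 and -0.53 ± 0.43 for Mir141 (FDR = 0.454 to 0.830), with 0.22% of features called. In CPM the summed family was at 1.64, 2.82 and 5.88 in Q175 and at 2.12, 3.85 and 17.0 in the 13 control libraries tested, which overlap. The lowest FDR at this age was that of Mir429 in Q92 (log2 -2.32, FDR = 0.127). Association with CAG length at 2 months had 0 of 4 members called (0.22% of features called). In Q140 the values lay from -0.29 for Mir200a to 0.0044 for Mir200b, with 3 of 4 below 0 (lowest FDR = 0.979). These comparisons share the same controls.

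In 14 comparisons (Q80, Q92 and Q111 at each age, Q140 at 2 and 6 months, Q20 with WT at 2 and 10 months, and the Q175 difference between ages), edgeR called 0% of features and therefore no member. In those, 6 to 38 features had an unadjusted p under 0.05 and DESeq2 called 0 to 4 features, of which no member. Sex was compared at each age. Females against males gave 0 of 4 members called at 2 months (1.54% of features called; log2 0.44 to 0.73, FDR = 0.274 to 0.542), 0 at 6 months (1.98% called) and 0 at 10 months (1.76% called). At 6 months 0 were also called without Q175 M2 (Mir429 0.77, FDR = 0.254), a fit added after the data were seen.

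Single libraries carried much of the family's total. Q175 M2 at 6 months held 536 of the 7142 counts, at 113.6 CPM or 10.7 times its group's median. Q140 M3 at 10 months was at 74.2 CPM (350 counts, 5.89 times) and Q175 M4 at 10 months at 62.5 CPM (301 counts). Of the 10 libraries with the highest summed CPM, 9 were of 10 months and 1 of 6 months. By line, 3 were Q175, 2 Q140, 2 Q80, and 1 each Q20, WT and Q111, so that high libraries also occurred among controls.

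In the highest libraries the clusters had like proportions. The chromosome 6 hairpins took 27.8% of the family's counts in Q175 M2 at 6 months (exact 95% binomial interval 24.0 to 31.8), 26.0% in Q140 M3 and 27.9% in Q175 M4 at 10 months, against a median of 28.9% over the 36 libraries with at least 60 family counts. Such intervals cover counting error only. In 2 libraries, chosen after their values were seen, the proportion was turned round. Q111 F1 at 6 months had 78.9% on chromosome 6 (67.6 to 87.7; 56 of 71 counts), with 52 counts of Mir141 and 0 of Mir429. Q175 M1 at 6 months had 67.1% (55.4 to 77.5; 51 of 76 counts), with 46 of Mir141. The other 34 libraries ran from 16.4% to 44.8%, below both intervals.

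**Figure D4:**
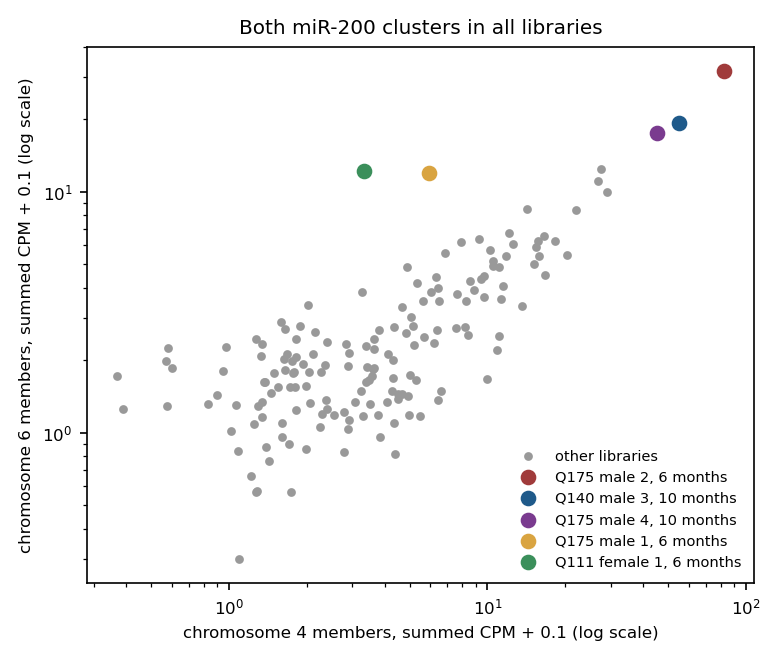
Summed CPM + 0.1 of the chromosome 4 hairpins (x axis) against the chromosome 6 hairpins (y axis) in all libraries, both on log axes, 1 point per library, with the 5 libraries discussed in colour. Libraries high in a cluster were mostly high in the other, up to Q175 M2 at 6 months, and Q111 F1 and Q175 M1 at 6 months lie above it.

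Over libraries the members moved together, most closely within the chromosome 4 cluster. Over the 150 libraries of the larger series, which differ in age and depth, Spearman's rho of CPM was 0.78 for Mir200b with Mir429, 0.75 for Mir200a with Mir429 and 0.72 for Mir200b with Mir200a. Mir141 had 0.63 to 0.65 with these 3, across chromosomes, which exceeds its 0.33 with its own neighbour Mir200c, the scarcest member. The sums of the clusters had a rho of 0.69 over the 150 libraries, 0.29 within 2 months (n = 56), 0.41 within 6 months (n = 40) and 0.80 within 10 months (n = 54). Summed CPM against total counts had a rho of 0.28. These are descriptions of libraries that share age, lane and scaling.

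The 5 other microRNAs whose CPM followed the summed family most closely over these 150 libraries, of 450 compared, were Mir142b (rho 0.59), Mir93 (0.58), Mir10a (0.57), Mir27b (0.56) and Mir126a (0.55). Mir142b comes from a locus known from blood cells and Mir126a from endothelium. Within the 54 libraries of 10 months the values were -0.12, -0.01, 0.14, 0.02 and -0.18 in that order, lower than over all ages. In the same order they were 0.15, 0.25, 0.36, 0.06 and 0.08 within 2 months (n = 56). Those within 6 months (n = 40) were 0.37, 0.10, 0.29, 0.23 and 0.17. Over the 16 libraries of the smaller series they were 0.09, -0.25, 0.02, -0.61 and -0.36.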

How the data were processed

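Cerebellar small RNA was sequenced from 166 mice (reads of 36 nt), base calls were made with CASAVA 1.8.2 per the submitters' processing notes, and the methods name STAR on mm10 and HTSeq. The deposited table holds expected counts per microRNA transcript, which the authors obtained from aligned reads, and 20.2% of its values were not whole. They were rounded here. The authors also deposited RPKM values, which in the larger series did not follow from the counts, so RPKM served as an alternative only. Features named by ENSEMBL transcript were matched to GENCODE M21 (1228 of 1626), and the unmatched ones took 0.600% of all counts.

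Following the methods, samples with standardized connectivity Z.k below -5 were left out (9, leaving 157). Also as in the methods, WT and Q20 were controls, sex was a covariate and Q = 7 was used for WT. The methods name batch as a further covariate. At 6 months library series was a covariate here, and the labels do not say whether it is that batch. The main test here was edgeR's quasi-likelihood test, and DESeq2, which the study used, was an alternative. The study ran DESeq2 on counts with outliers replaced. Here DESeq2 ran on counts without replacement and replaced counts went to edgeR only, so the study's own procedure was not fitted. Libraries were scaled by TMM, features filtered by filterByExpr (minimum count 10), and FDR under 0.05 over all 454 features tested was a call. CPM is rounded counts per 1000000 of TMM-scaled library size, and an SE is the size of the log2 fold change over the square root of F. The test was run on simulated data as well. Per the methods, same-sex mice of a genotype were drawn from different litters, and p-values measure the spread between these mice. Precision is limited by depth, 5 to 536 family counts per library.

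The members, lists and comparisons were chosen with earlier results of these data known. Named in the text are the 5 members, the 5 features most like their sum in Spearman's rho over the larger series, and list members beside a result. Alternatives were another normalization (RLE), no filter and a stricter filter, DESeq2, robust dispersion, replaced outlying counts, all libraries kept, a lane term, a replicate block, no sex or series term, either control alone, limma on log2(RPKM + 1) and single libraries left out. A stricter filter left no member to test, and Q20 alone at 6 months, a lane term between ages (a lane was taken as a lane within a series and an age) and a replicate block for sex could not be fitted. R 4.3.3, edgeR 4.0.16, DESeq2 1.42.0, limma 3.58.1, Python 3.11.15, pandas 2.3.3, scipy 1.17.1 and matplotlib 3.10.9 were used.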

Additional observations from a re-analysis of the deposited data

Results flagged for a closer look

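In 13 of 21 groups a library stood apart from the others of its group in the summed family or in a member, by Dixon's test at the 95% level. Of 126 tests (5 members and their sum in 21 groups) 33 passed, all for the highest library of the group, in 14 libraries. The cutoffs of this test are for normally distributed values, while CPM was not log-transformed and rests on few counts. The share that chance would give is therefore not known, and 33 of 126 is a description only. Members of a library are not independent, so a library counts several times.

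Q175 M2 at 6 months stood apart in each measure: 113.6 CPM for the family (next library 17.7), with Mir200b at 19.3, Mir200a at 24.2, Mir429 at 38.6, Mir200c at 2.76 and Mir141 at 28.8 CPM. Values without it stand in the report beside the results for Q175, repeat length and sex at 6 months. Q175 M4 at 10 months had 62.5 CPM for the family (next 30.2), 13.7 CPM of Mir200a and 2.49 CPM of Mir200c. Q140 M3 at 10 months stood apart in Mir200b alone, at 11.9 CPM (next 5.61), and Q20 M1 at 10 months in Mir200a (6.91 CPM) and Mir429 (16.5 CPM).

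At 2 months Q140 F3 had 18.5 CPM for the family (next 6.54), 2.08 of Mir200a, 6.69 of Mir429 and 5.54 of Mir141. Q20 F4, a control, had 17.0 CPM (next 7.58), 6.59 of Mir429 and 5.32 of Mir141. Q175 M2 of this age, another mouse than that of 6 months, had 0.705 CPM of Mir200a and 1.65 CPM of Mir429, which are few counts.

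At 6 months Q80 F3 had 21.2 CPM for the family (next 5.98), 2.77 of Mir200b, 7.81 of Mir429 and 5.04 of Mir141. Q20 F2 had 14.6 CPM for the family (next 7.73) and 5.11 of Mir200a. Q111 F1 stood apart in the chromosome 6 cluster only, with 11.2 CPM of Mir141 (next 4.08) and 0.864 CPM of Mir200c. Q111 F4 had 4.66 CPM of Mir429 and Q140 F4 had 1.98 CPM of Mir200a. At 10 months Q111 M1 had 1.22 CPM and Q80 M2 had 1.45 CPM of Mir200c.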

How the results depend on the processing

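Of 1504 recomputed values of members, 1412 kept direction and call, 31 lost a call, 1 gained a call, 60 uncalled values changed sign, and no called value turned. Within 6 months no library had been left out, so keeping all libraries repeated the main fit there and is counted as unchanged. Counts of members called stayed within 1.5 times in 364 of 376. The others were as follows. For Q175 at 6 months (4 called), replaced outlying counts left 1, and leaving out single libraries gave 2 (without Q175 M2) to 4. The call of Mir200a was lost in 6 of 13 alternatives other than leaving out libraries: without the filter (2.09, FDR = 0.0545), with replaced counts (0.64, FDR = 0.566), with a lane term (1.79, FDR = 0.183), with a replicate block, by limma on RPKM (0.74, FDR = 0.533) and with only the groups compared (2.00, FDR = 0.104). For repeat length at 6 months (3 called), 1 was left without the filter and 1 with a replicate block, and 0 with replaced counts, with a lane term, by limma on RPKM or without Q175 M2. For 6 against 2 months (2 called), 1 was called without the filter, with replaced counts, with libraries of 2 and 6 months only (Mir141 0.50, FDR = 0.0510), or without Q80 F3 (range 1 to 2 over 3 libraries left out). The calls of all 4 members for 10 against 2 and 10 against 6 months held in each alternative fitted. With a replicate block 3 of 4 members were called for Q175 at 6 months (Mir200b 2.52, Mir429 2.57, Mir141 2.29; Mir200a 1.63, FDR = 0.112), and over 24 comparisons 3 member calls changed. Replicate numbers were shared by name only: at 6 months same-numbered Q175 and WT libraries correlated at -0.31 to 0.39 in their deviations, over 0.1 in 3 of 8 pairs, and 1 of 8 was closest to its own number. The cause of these changes was not tested. With a median of 22 family counts per library, depth limits what could be detected, and Mir200c was not testable.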
